A study of Mus musculus with 13 samples.

Results

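The seminal vesicle secretory genes are the 7 mouse genes Svs1, Svs2, Svs3a, Svs3b, Svs4, Svs5 and Svs6. They were chosen by symbol, with their read counts in the tumour libraries already known. All 7 are listed in both deposited tables, among 24421 entries for prostate tumours and 23360 for epididymal fat. Because their tumour counts were in view when they were chosen, their levels are given as a description, with no p-value.

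Seminal vesicles are paired glands that empty beside the prostate and supply much of the volume of rodent semen. Their androgen-dependent epithelium secretes a few very abundant proteins. Several of these, Svs2 above all, are cross-linked by the prostatic transglutaminase Tgm4 into the copulatory plug.

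RNA of prostate tumours and epididymal fat came from C57BL/6 mice 30 to 35 weeks old on a regular diet. All animals carried TRAMP, a transgene in which the probasin promoter drives SV40 T antigens in prostate epithelium. Tumour libraries were 3 from mice lacking p62 in adipocytes (TRAMP+;p62aP2KO, here knockout) and 4 from mice with the unrecombined floxed gene (TRAMP+;p62f/f, here wild type). Fat libraries were 3 and 3 of the same genotypes. The knockout label names aP2, a promoter active in adipocytes and also in macrophages, and the tumour epithelium itself was not targeted. Tumour libraries held between 17810397 and 32475051 counts in total. The depth of the fat values is unknown. Whether every library stands for its own mouse is not stated in the labels.

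Sqstm1, which encodes p62, counted 178, 6053 and 461 in knockout tumours 1 to 3, against 3243, 135, 2358 and 3165 in wild-type tumours 1 to 4. In fat, where the gene was targeted, it stood at 4.53, 54.5 and 2.58 FPKM in knockout libraries 1 to 3, against 73.6, 1.77 and 84.3 FPKM in wild-type libraries 1 to 3. In fat the library labelled knockout 2 was thus high and the library labelled wild type 2 low, against their labels. The tumours showed the same order by number, with Sqstm1 low in knockout tumours 1 and 3 and in wild-type tumour 2, although the knockout was not directed at the tumour epithelium; the source of this was not tested. Groups follow the labels as deposited. Values without both libraries numbered 2 are given for the members, for Spink1 and for the numbers of genes called by edgeR and limma. No such value is given for the DESeq2 calls or the other fold changes.

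Of the 7 genes, 6 lie together on chromosome 2 of GRCm38 (mm10), within 98.5 kb that hold 6 protein-coding genes in GENCODE M21, all of them members. In order these are Svs2 (164235929 to 164238466, minus strand), Svs3b (164254363 to 164256640, minus), Svs4 (164275952 to 164278459, minus), Svs3a (164289268 to 164291500, plus), Svs6 (164316751 to 164318453, plus) and Svs5 (164332740 to 164334396, plus). Svs1, a relative of copper amine oxidases, lies apart on chromosome 6 (48986861 to 48991722, plus). Merged exon length runs between 535 bases for Svs6 and 2775 for Svs1.

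The 100 bases before the RefSeq start are shown for 4 genes because the members were high together in the same library and several of their upstream regions are near copies of each other. All 7 genes matched a RefSeq window of build GRCm38.p6. The 4 windows that do not reach into the GENCODE gene are printed, each read 5′ to 3′ on the strand of its gene: chr2:164256644-164256743 (-) for Svs3b, chr2:164289167-164289266 (+) for Svs3a, chr2:164316651-164316750 (+) for Svs6 and chr6:48986761-48986860 (+) for Svs1. Capitals mark TATAAA on the forward strand and AGAACA, the unit repeated in steroid receptor response elements, searched on both strands. In Svs3a and Svs3b they adjoin without overlap, and copies outside the printed bases are not shown.
Svs3b: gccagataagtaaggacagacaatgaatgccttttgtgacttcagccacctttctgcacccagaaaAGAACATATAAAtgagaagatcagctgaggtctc
Svs3a: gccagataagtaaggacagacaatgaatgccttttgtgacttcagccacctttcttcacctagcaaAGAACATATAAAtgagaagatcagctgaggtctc
Svs6: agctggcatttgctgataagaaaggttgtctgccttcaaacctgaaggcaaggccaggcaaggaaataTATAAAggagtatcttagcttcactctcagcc
Svs1: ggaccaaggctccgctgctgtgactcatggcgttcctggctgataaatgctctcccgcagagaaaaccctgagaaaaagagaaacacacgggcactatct

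TATAAA began 28 bases before the start in Svs3a, Svs3b, Svs4 and Svs5 and 32 bases before it in Svs6. All distances are from the RefSeq start. TATAAA was thus in the last 50 bases of 5 of the 7 genes, where 2.63% of 32817 RefSeq windows hold it there. Svs2 had its copy nearest the start 205 bases before it, outside the last 100. Within 250 bases, AGAACA on either strand was present in 5 of 7 genes and in 16.1% of all windows. An inverted pair of AGAACA spaced by 3 bases was in 0 of the 7 and in 0.00914% of all windows. GENCODE places the start further upstream than RefSeq does for 3 genes, by 125 bases for Svs2, 152 for Svs4 and 25 for Svs5. By GENCODE the last 100 bases before the RefSeq start thus lie inside the gene for Svs2 and Svs4, and the last 25 do for Svs5. These matches are letters in a window and not shown to be sites. Both counts of 5 include Svs3a with Svs3b and Svs5 with Svs6, whose upstream regions are 97.6% and 93.3% identical. The 5 genes are therefore not independent of each other.

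The upstream regions of Svs3a and Svs3b were 97.6% identical over 250 bases, with 6 mismatches and no gap. Those of Svs5 and Svs6 were 93.3% identical, although the transcripts of this pair shared only 54.8% of aligned columns. Upstream, Svs1 gave 44.8% to 49.0% against the other 6 genes, and Svs2 gave 42.0% to 45.4% against the other 5 of its cluster. Svs4 stood at 53.99% to 57.1% against Svs3a, Svs3b, Svs5 and Svs6.

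**Figure D1:**
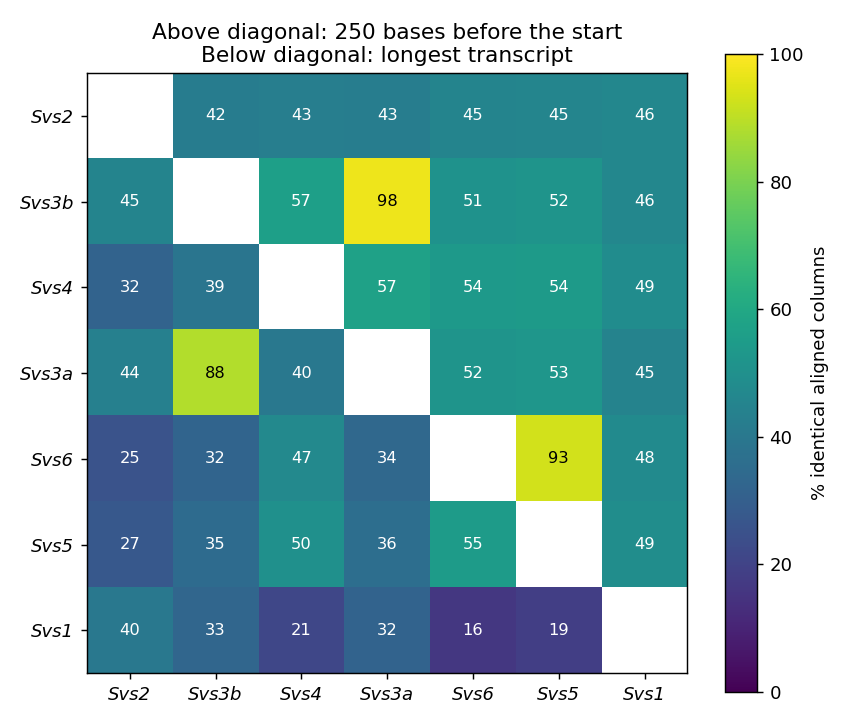
Percent of identical aligned columns between each pair of the 7 genes, in their chromosomal order with Svs1 last. Cells above the diagonal compare the 250 bases before the start and cells below it the longest GENCODE transcript; the pairs Svs3a with Svs3b (97.6% upstream, 88.4% transcript) and Svs5 with Svs6 (93.3% upstream, 54.8% transcript) stand out.

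Near-identical genes can share reads. The reads were 75 bases long, so each transcript was cut into all its 75-base windows and these were looked up in every GENCODE transcript. Svs3a shared 395 of its 1199 windows with Svs3b, or 32.9%, and these were 33.6% of the windows of Svs3b. The windows of the other 5 genes occurred in 0 other genes, Svs5 and Svs6 included. Counts of Svs3a and Svs3b are therefore uncertain as a split of the pair, since the sources used here do not say how reads matching both were counted.

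Knockout tumour 1 held far more RNA of these genes than any other library. Their summed count there was 940800, or 4.67% of all counts (95% Wilson interval 4.66% to 4.68%), and Svs4, Svs5 and Svs2 ranked 1, 4 and 5 by count among the 24421 entries. The sum was 273 and 4712 in knockout tumours 2 and 3, against 59720, 451, 2250 and 664 in wild-type tumours 1 to 4. In CPM, the counts scaled to an equal library total with TMM factors, that is 47416, 7.92 and 199 in knockout tumours, against 3183, 18.9, 159 and 31.7 in wild-type tumours. The summed count of wild-type tumour 1, the next highest, was 6.35% of that of knockout tumour 1, and the other 5 libraries lay between 7.92 and 199 CPM. Intervals and floors here cover counting error only.

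Svs2, the main structural protein of the plug, had 8333, 1.28 and 4.74 CPM in knockout tumours 1 to 3, against 2645, 6.73, 14.4 and 8.08 CPM in wild-type tumours 1 to 4. The library numbered 1 of each genotype was high and the other 5 were low, so the groups overlapped. Knockout tumour 1 stood 3.15 times above wild-type tumour 1, the smallest such step among the 7 genes.

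Svs3a, a plug protein, had 239, 0.0580 and 0.465 CPM in knockout tumours, against 0.213, 0.460, 1.63 and 0.956 CPM in wild-type tumours. Svs3b, its near copy, had 71.6, 0.0580 and 0 CPM in knockout tumours, against 0.426, 0.544, 0.566 and 0.526 CPM in wild-type tumours. Both were high in knockout tumour 1 alone, at 147 and 126 times the highest other library, and at or under 23 counts in each of the other libraries. The 0 of Svs3b in knockout tumour 3 allows up to 0.127 CPM. The count of Svs3a was 3.34 times that of Svs3b in knockout tumour 1, with the uncertainty of the split named above.

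Svs4, a small secreted protein whose rat counterpart is known for effects on immune cells, had 27525, 4.82 and 155 CPM in knockout tumours, against 37.1, 5.73, 109 and 13.5 CPM in wild-type tumours. Knockout tumour 1 was 177 times above the next library, knockout tumour 3, the largest such step of the 7 genes. Unlike Svs2, Svs4 was not raised in wild-type tumour 1: it was lower there than in wild-type tumour 3.

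Svs5 and Svs6, small seminal fluid proteins, followed knockout tumour 1 and parted in wild-type tumour 1. Svs5 had 11009, 1.60 and 35.7 CPM in knockout tumours, against 500.0, 4.01, 28.1 and 7.12 CPM in wild-type tumours. Svs6 had 217, 0.116 and 3.003 CPM in knockout tumours, against 0.586, 0.711, 5.03 and 0.526 CPM in wild-type tumours. Wild-type tumour 1 was thus the second highest library for Svs5 and among the 4 lowest for Svs6, where wild-type tumour 3 came second. In counts, Svs5 was 50.8 times Svs6 in knockout tumour 1 and 853 times Svs6 in wild-type tumour 1.

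Svs1 was the least abundant member, with 21.4, 0 and 0 CPM in knockout tumours, against 0.213, 0.669, 0.920 and 1.00 CPM in wild-type tumours. The zeros of knockout tumours 2 and 3 allow up to 0.0871 and 0.127 CPM, so both lay below the lowest wild-type value. Knockout tumour 1 was 21.3 times above the highest other library, and the groups overlapped only because of its place at the top.

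**Figure D2:**
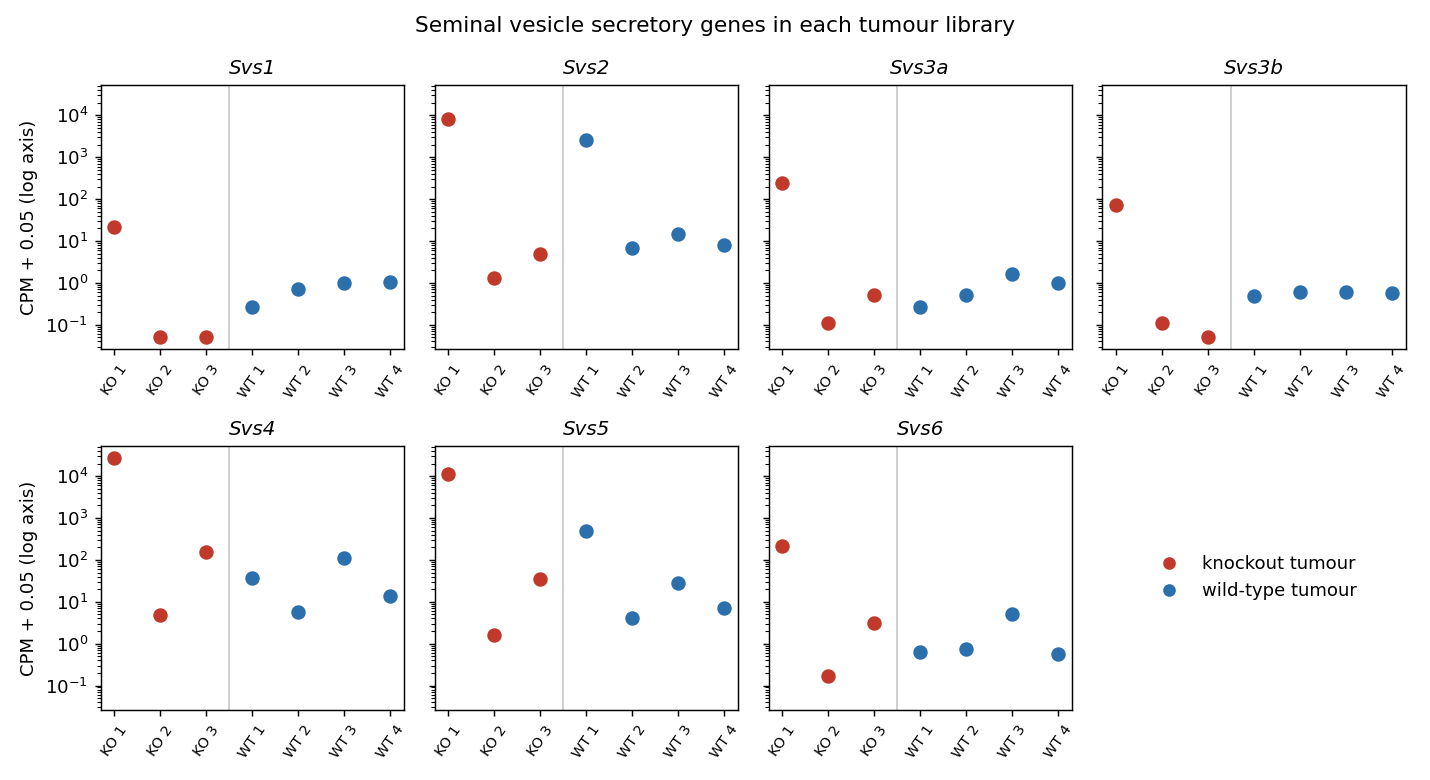
CPM of each of the 7 genes plus 0.05 on a log axis, 1 point per tumour library, knockout libraries (red) left of wild-type libraries (blue). Knockout tumour 1 is the highest point in all 7 panels, at 21.4 CPM for Svs1 up to 27525 CPM for Svs4; wild-type tumour 1 stands far above the other wild-type libraries only in Svs2 (2645 CPM) and Svs5 (500.0 CPM).

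Per kilobase of exon, the members of knockout tumour 1 ranked Svs4 (37654 CPM per kilobase), Svs5 (17042), Svs2 (4198), Svs6 (405), Svs3a (199), Svs3b (57.3) and Svs1 (7.70). These levels span more than 3 orders of magnitude within 1 library. In wild-type tumour 1 the order was Svs2 (1332 CPM per kilobase), Svs5 (774) and Svs4 (50.8), with Svs6 at 1.10 and the remaining members below 1. In knockout tumour 3 it was Svs4 (213 CPM per kilobase), Svs5 (55.3), Svs6 (5.61) and Svs2 (2.39). In wild-type tumour 3 it was Svs4 (149 CPM per kilobase), Svs5 (43.5), Svs6 (9.39) and Svs2 (7.24).

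The make-up of the summed count differed between libraries beyond counting error. Svs4 made up 58.0% of it in knockout tumour 1 (95% Wilson interval 57.95% to 58.1%) and 78.0% in knockout tumour 3 (76.8% to 79.1%), against 1.17% in wild-type tumour 1 (1.08% to 1.25%) and 68.2% in wild-type tumour 3 (66.3% to 70.1%). Svs2 made up 17.6% in knockout tumour 1 (17.5% to 17.7%) and 2.38% in knockout tumour 3 (1.98% to 2.85%), against 83.1% in wild-type tumour 1 (82.8% to 83.4%) and 9.02% in wild-type tumour 3 (7.91% to 10.3%). The count of Svs4 was 3.30 times that of Svs2 in knockout tumour 1 and 32.8 times in knockout tumour 3, against 0.0140 times in wild-type tumour 1 and 7.56 times in wild-type tumour 3. The summed count of wild-type tumour 1 was therefore not a smaller copy of that of knockout tumour 1. Svs5 took between 15.7% and 23.2% in all 7 libraries.

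In the 3 libraries with the smallest sums the make-up is less precise. Knockout tumour 2, with 273 counts, had 60.8% Svs4 (54.9% to 66.4%), 20.1% Svs5 (15.8% to 25.3%) and 16.1% Svs2 (12.2% to 20.9%), and all 3 intervals include the share of knockout tumour 1. Among the rarer members, the intervals of Svs3a and Svs1 also include it. Those of Svs6 (4 counts, 0.571% to 3.71%) and Svs3b (2 counts, 0.201% to 2.63%) do not. The shares in knockout tumour 1 were 0.457% for Svs6 and 0.151% for Svs3b. The sum of knockout tumour 2 was 0.0290% of that of knockout tumour 1. Per the labels the libraries were pooled for sequencing, and whether reads passed between libraries was not tested. Wild-type tumours 2 and 4 had 30.4% and 42.6% Svs4 and 35.7% and 25.5% Svs2, with Svs1 at 3.55% and 3.16%, against 0.0451% in knockout tumour 1.

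**Figure D3:**
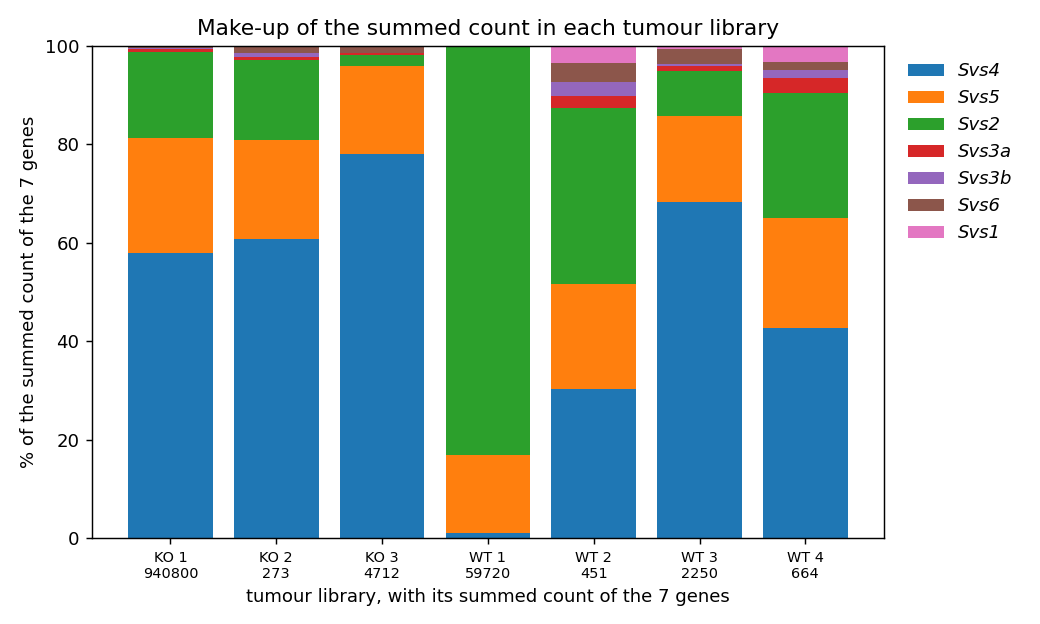
Share of each of the 7 genes in their summed count (percent, stacked bars from 0 to 100), for 3 knockout and 4 wild-type tumour libraries, with the summed count under each bar. Svs4 fills 58.0% of the bar of knockout tumour 1 and 1.17% of that of wild-type tumour 1, which is 83.1% Svs2.

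Between genotypes the members did not separate. All 7 had overlapping groups, with SDs larger than the means in the knockout tumours: Svs4 averaged 9228 ± 15846 CPM in knockout tumours (SD, n = 3) and 41.3 ± 46.9 CPM in wild-type tumours (SD, n = 4). Svs2 averaged 2780 ± 4810 CPM in knockout tumours (SD, n = 3) and 668 ± 1318 CPM in wild-type tumours (SD, n = 4). The mean of the summed members was 4.23 higher on the log2 scale in knockout tumours, and 3.03 lower without knockout tumour 1, so its direction rested on that library. It was 7.83 higher without wild-type tumour 1 and 4.40 higher without both libraries numbered 2. The value 3.03 lower still held wild-type tumour 1, at 3183 CPM. Knockout tumours 2 and 3 stood at 7.92 and 199 CPM, against 18.9, 159 and 31.7 CPM in wild-type tumours 2 to 4. The ratio without both libraries numbered 1 was not computed.

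The fitted log2 fold changes of edgeR, knockout over wild type, were 3.33 (SE 1.98) for Svs1, 2.06 (SE 2.76) for Svs2, 6.64 (SE 2.27) for Svs3a, 5.52 (SE 2.16) for Svs3b, 7.81 (SE 2.52) for Svs4, 4.77 (SE 2.61) for Svs5 and 5.46 (SE 2.02) for Svs6. Without knockout tumour 1 they were negative for Svs2, Svs3a, Svs3b, Svs5 and Svs6, between -0.13 for Svs6 and -7.80 for Svs2, and 0.96 for Svs4. Svs1 was then at 0 in both knockout libraries, and its fold change is not given. For Svs2 and Svs5 that fit kept wild-type tumour 1, at 2645 and 500.0 CPM. The other wild-type tumours had 6.73 to 14.4 CPM of Svs2 and 4.01 to 28.1 CPM of Svs5. Svs3a and Svs3b had at most 23 counts in any library left. With the replicate number as a block, a fit to which wild-type tumour 4 adds nothing on genotype since it has no partner, the values were -2.24 for Svs1, -0.83 for Svs2, 0.52 for Svs3a, -0.77 for Svs3b, 1.77 for Svs4, 0.98 for Svs5 and 0.65 for Svs6. The direction thus turned for Svs1, Svs2 and Svs3b. Without both libraries numbered 2, and without the block, all 7 stayed positive, between 2.24 for Svs2 and 8.03 for Svs4. Of 15117 genes tested, edgeR called 0 at an adjusted p under 0.05 (0%), with 1879 at an unadjusted p under 0.05. DESeq2 called 780 (5.16%), and for all 7 members it gave no p-value. All 7 members passed the filter on low counts.

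Of 8 other secretory genes of the seminal vesicle or their close relatives, listed with earlier results known, none was called by edgeR or DESeq2 among the 5 tested, and they did not all follow the members. Their smallest adjusted p was 0.568 with edgeR's quasi-likelihood test and 0.527 with DESeq2, and 0 of them had an unadjusted p under 0.05 with either. DESeq2 gave no p-value for 2 of the 5. Over all 15117 genes edgeR called 0 and DESeq2 780 (5.16%), with 1879 and 2226 at an unadjusted p under 0.05. The median log2 fold change of the 5 was -1.49, beside -0.07 over all genes tested. The filter on low counts left out Sva, Sval2 and Sval3, all highest in knockout tumour 1 (Sval3 at only 2 counts). Of the 8 genes, 4 were highest in that library. The 8 summed to 743, 4.64 and 13.6 CPM in knockout tumours, against 532, 70.1, 23.4 and 75.4 CPM in wild-type tumours. Most of the sum was Ceacam10 in knockout tumour 1 (588 CPM) and Pate4 in wild-type tumour 1 (522 CPM).

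Ceacam10, a seminal vesicle secreted glycoprotein, had 588, 1.19 and 2.16 CPM in knockout tumours, against 1.65, 0.753, 0.779 and 60.0 CPM in wild-type tumours. It was highest in knockout tumour 1 like the members, but wild-type tumour 4 came second (log2 fold change 3.64, SE 2.26, edgeR adjusted p = 0.568). Without knockout tumour 1 the fold change was -3.23.

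Sva, seminal vesicle autoantigen, had 34.9, 0.0290 and 0 CPM in knockout tumours, against 0.0533, 0.460, 0.637 and 0.191 CPM in wild-type tumours. It repeated the pattern of Svs1 and Svs3b and did not pass the filter on low counts. Sval2, a relative of Sva, counted 39 in knockout tumour 1 and 0 in each of the other 6 libraries. Sval3 had at most 2 counts in any library, and Sval1 had 0 in knockout tumour 1 and at most 3.02 CPM elsewhere.

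Pate4, also called Svs7, had 95.7, 0.377 and 8.88 CPM in knockout tumours, against 522, 1.21, 14.8 and 3.11 CPM in wild-type tumours. Like Svs2 and Svs5 it was high in the libraries numbered 1 of both genotypes, but its highest library was wild-type tumour 1 and not knockout tumour 1 (log2 fold change -1.95, SE 2.20, edgeR adjusted p = 0.755; 2.47 without wild-type tumour 1). Spink1, a trypsin inhibitor of seminal vesicle and prostate, peaked elsewhere, with 20.1, 0 and 0.169 CPM in knockout tumours, against 7.62, 66.2, 1.77 and 0.0478 CPM in wild-type tumours (-1.49, SE 2.25, edgeR adjusted p = 0.826). Its fold change was 1.69 without both libraries numbered 2 and 1.09 without wild-type tumour 2. Spinkl, a related inhibitor, was highest in wild-type tumour 4, at 11.4 CPM, against 2.22 CPM in knockout tumour 1 (-2.24, SE 1.62, edgeR adjusted p = 0.624).

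The genes closest to the members in pattern were found by the root mean square difference between centred log2 CPM profiles over the 7 tumour libraries, taken against the mean of the members. Among 20695 genes compared the median difference was 3.25. The 10 nearest were Nkx2-1 (1.03), 2310057J18Rik (1.24), Gsta3 (1.40), Sva (1.41), E030019B13Rik (1.43), Elf5 (1.53), Pip (1.55), Spt1 (1.60), Muc5b (1.72) and Col26a1 (1.80). By the same measure the members themselves lay between 1.08 (Svs3a) and 2.40 (Svs2) from their own mean.

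Gsta3, a glutathione transferase, and Elf5, an epithelial transcription factor, were the only ones of the 10 past the filter on low counts. Gsta3 counted 6936, 70 and 67 in knockout tumours, against 60, 93, 90 and 284 in wild-type tumours. Elf5 counted 2718, 80 and 76 in knockout tumours, against 245, 139, 226 and 181 in wild-type tumours. Nkx2-1, a homeobox factor known from lung, thyroid and forebrain, counted 233, 0 and 0 in knockout tumours, against 3, 0, 3 and 0 in wild-type tumours. Pip, for prolactin-induced protein, counted 87 in knockout tumour 1, 2310057J18Rik 396 and E030019B13Rik 136, each with 0 in the other 6 libraries.

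The likeness rested on knockout tumour 1: without it, 0 of the 10 genes were again among the 10 nearest, and without wild-type tumour 4 there were 5. Leaving out any of the other 5 libraries kept between 7 and 9 of the 10.

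**Figure D4:**
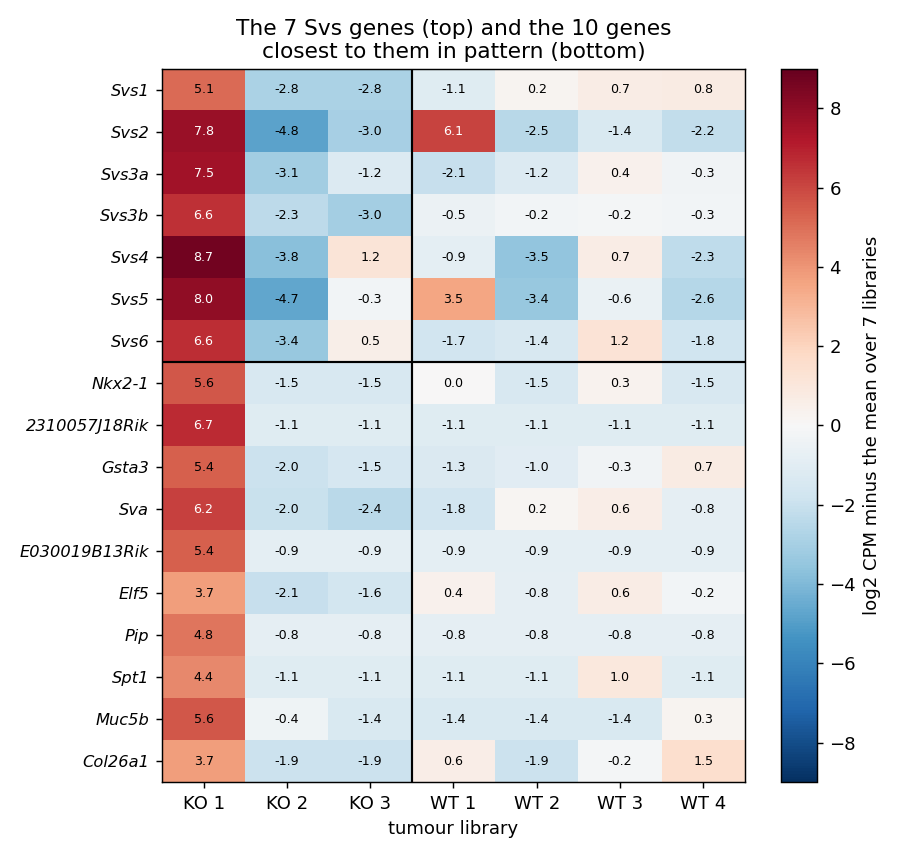
Log2 CPM minus the mean over the 7 tumour libraries, for the 7 members (above the line) and the 10 genes closest in pattern (below it); columns are 3 knockout and 4 wild-type libraries, red above and blue below the gene's own mean. Every gene shown is highest in knockout tumour 1, and Svs2 and Svs5 are also raised in wild-type tumour 1.

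The annotated neighbours of the members did not share their step in knockout tumour 1. Beside the chromosome 2 cluster, the antiprotease gene Slpi stood at 39.5 CPM in knockout tumour 1, against 2.72 to 72.0 CPM in the other libraries. Matn4 stood at 0.756 CPM, against 0.592 to 19.0 CPM elsewhere. Of the WFDC genes on the other side, Wfdc12 stood at 0.605 CPM, against 0.719 to 93.9 CPM, and Wfdc15a at 0, against at most 1.91 CPM. Of the 12 neighbours looked at, 2 were highest in knockout tumour 1: Rbpjl, at 0.0504 CPM against at most 0.0290 CPM elsewhere, and Wfdc15b. Wfdc15b stood at 136 CPM in knockout tumour 1, 1.23 times the highest other library. Next to Svs1, the amine oxidase gene Aoc1 stood at 0.756 CPM in knockout tumour 1, against 0.142 to 3.86 CPM in the other libraries.

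Markers of other tissues were read in the same libraries, since bulk RNA cannot separate more cells of a kind from more RNA per cell. The 12 prostate luminal genes were present in every library, summing to 9907, 3300 and 5839 CPM in knockout tumours, against 14296, 15128, 25324 and 4200 CPM in wild-type tumours. Pbsn, the probasin gene, counted 42179, 3076 and 6916 in knockout tumours, against 75043, 102475, 134689 and 1230 in wild-type tumours. Of the 12 genes, 2 were highest in knockout tumour 1, Tmprss2 at 474 CPM, against 165 to 397 CPM in the other libraries, and Fkbp5 at 321 CPM, against 161 to 253 CPM. Of the 12 genes edgeR called 0, with 3 at an unadjusted p under 0.05, beside 1879 of all 15117 genes tested. DESeq2 called 3 of the 12, all lower in knockout tumours, beside 780 of 15117 (5.16%) over all genes.

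The 10 smooth muscle genes, markers of the muscle coat that seminal vesicle and prostate share, summed to 8519, 6144 and 8690 CPM in knockout tumours, against 3800, 7265, 6395 and 6207 CPM in wild-type tumours. Of the 10 genes, 3 were highest in knockout tumour 1, and the sum there lay below that of knockout tumour 3. The tools edgeR and DESeq2 each called 0 of 10, beside 0 and 780 (5.16%) of 15117 over all genes. Each had 1 of 10 at an unadjusted p under 0.05, beside 1879 and 2226 of 15117. Counts this near the share over all genes say nothing about the list. The part of the smooth muscle and luminal genes in the levels of the members was not tested.

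The 16 epididymis genes marked another library. They summed to 20.1, 10.2 and 6.56 CPM in knockout tumours, against 109, 1.34, 10.9 and 3006 CPM in wild-type tumours. Crisp1, a sperm-coating protein, counted 57711 in wild-type tumour 4 and 380 in knockout tumour 1, and Adam7 counted 4002 and 1. The epididymal lipocalins Lcn5, Lcn8, Lcn9 and Lcn10 were at 0 in knockout tumour 1, where 9 of the 16 genes were at 0. Lcn12, a further lipocalin of the list, counted 5 there and 98 in wild-type tumour 4. Lcn8 and Lcn9 were at 0 in wild-type tumour 4 too. In that library, where 2 of the 16 were at 0, the members summed to only 31.7 CPM. The 2 genes tested, Crisp1 and Adam28, were not called by edgeR (smallest adjusted p = 0.435), beside 0 of 15117 over all genes. DESeq2 gave no p-value for Crisp1 and did not call Adam28, beside 780 of 15117 (5.16%). With edgeR 0 of the 2 had an unadjusted p under 0.05, beside 1879 of 15117.

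**Figure D5:**
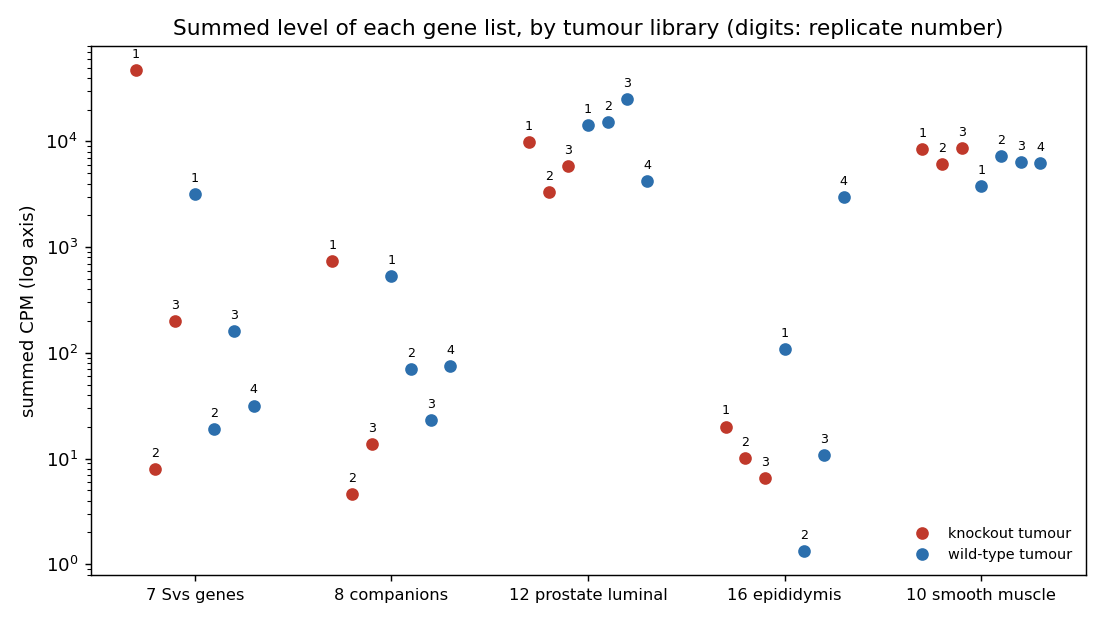
Summed CPM of 5 gene lists on a log axis, 1 point per tumour library labelled with its replicate number, knockout (red) left of wild type (blue). The 7 Svs genes peak in knockout tumour 1 (47416 CPM), the epididymis genes in wild-type tumour 4 (3006 CPM), and the smooth muscle genes span 3800 to 8690 CPM.

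In epididymal fat, 6 of the 7 genes were listed at 0 in all 6 libraries. Svs5 was listed at 0.887, 0.161 and 0 FPKM in knockout fat 1 to 3, against 3.68, 0 and 0.446 FPKM in wild-type fat 1 to 3. The groups overlapped, and the mean of 0.862 FPKM lay below the minimum of 1 set for testing, so 0 members were tested there. Of the 8 companion genes 5 were listed at 0 in all fat libraries, none exceeded 0.787 FPKM and 0 were tested. Over all 13617 genes tested in fat, limma called 1 (0.00734%), with 2045 at an unadjusted p under 0.05.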

How the data were processed

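RNA was measured by sequencing in 7 tumour and 6 fat libraries. Per the submitters' processing notes STAR, DESeq2 and mm10 were used; no source used here names versions, a counter or an annotation. The deposited tumour values are raw counts per gene, as whole numbers with differing totals show. The deposited fat values name no unit; the authors' values were read as FPKM, being not whole and summing to between 1107210 and 2114960 per library, so depth is unknown.

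Tumour counts were scaled by TMM, filtered with filterByExpr (minimum count 10) and tested with edgeR 4.0.16 (quasi-likelihood), with DESeq2 1.42.0 as an alternative. Fat was tested as log2(FPKM + 1), which understates changes of low genes, with limma 3.58.1 (trend) where the mean FPKM reached 1. R was 4.3.3. Tests were two-sided, with Benjamini-Hochberg adjustment over all genes and calls under 0.05. SE of edgeR fold changes is the fold change over the root of the test statistic. Both fits were also run on simulated data. The simulated tumours held no outlying library, so that run does not bear on results that rest on knockout tumour 1.

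Log2 CPM for pattern likeness used a prior count of 2. Upstream regions and longest transcripts were compared by global alignment. Named genes are the 7 members, 8 companions, the 10 nearest in pattern, examples of the marker lists and, added after values were seen, 3 annotated neighbours on each side of each locus. Members, lists and tests were chosen with earlier results of these data known.

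Same-numbered knockout and wild-type tumours had weakly correlated deviations (0.18, 0.11 and 0.27 for numbers 1 to 3). In fat the correlations were -0.05, 0.15 and 0.15. Differently numbered libraries were not compared, so these values cannot show a pairing, and the labels state none. The replicate block is therefore given only as an alternative fit. The spread behind each p is that of the libraries as labelled and may be partly technical. A floor of 3 counts stands for a count of 0, and intervals are 95%.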

Additional observations from a re-analysis of the deposited data

Results flagged for a closer look

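In the 4 wild-type tumours, 9 of 18 values screened had 1 library far from the others by Dixon's criterion at the 95% level. The criterion flags about 1 in 20 groups by chance, but 9 of 18 cannot be read against that. The members were chosen with these counts known, CPM is skewed, and the values overlap, since 83.1% of the summed members in wild-type tumour 1 is Svs2. The list is a description. Wild-type tumour 1 stood apart for Svs2 (2645 CPM, the others 6.73 to 14.4), Svs5 (500.0 CPM, the others 4.01 to 28.1), Pate4 (522 CPM, the others 1.21 to 14.8), the summed members (3183 CPM, the others 18.9 to 159) and the summed companions (532 CPM, the others 23.4 to 75.4). Wild-type tumour 3 stood apart for Svs6 (5.03 CPM, the others 0.526 to 0.711). Wild-type tumour 2 stood apart for Spink1 (66.2 CPM, the others 0.0478 to 7.62). Wild-type tumour 4 stood apart for Ceacam10 (60.0 CPM, the others 0.753 to 1.65) and the summed epididymis genes (3006 CPM, the others 1.34 to 109). The knockout tumours, 3 in number, were too few for this comparison.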

How the results depend on the processing

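The count of tumour genes called by edgeR was 0 in every alternative, including without any 1 library (0 to 0) and with the replicate block, and 780 with DESeq2. The block changed no call. In fat limma called 1 gene, 5 without both libraries numbered 2, and 2 to 4 without any 1 library; the replicate block, a pseudocount of 0.1 and no filter gave 1 each. The log2 ratio of the summed members was 4.23, between 4.14 and 4.40 under the other scalings, without Svs3a and Svs3b or without both libraries numbered 2, and between -3.03 and 7.83 without any 1 library. Of the 10 genes nearest in pattern, 0 to 9 were found again without any 1 library, a comparison added after seeing the data. Fold changes of companions changed sign for Pate4 (-4.87 to 2.47 without any 1 library), Ceacam10 (-3.23 to 7.53) and Spink1 (-7.85 to 1.09, and 1.69 without both libraries numbered 2). Members at 0 to 23 counts outside knockout tumour 1 are limited by depth.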

Other observations

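Tgm4, the transglutaminase that cross-links Svs2, was listed in fat at 0.759, 0.726 and 0.658 FPKM in knockout libraries 1 to 3, against 2.43, 2.36 and 2.08 FPKM in wild-type libraries 1 to 3. The groups did not overlap, also for the libraries numbered 2, but the difference did not pass over all genes (log2 fold change -0.94 on the log2(FPKM + 1) scale, SE 0.30, limma adjusted p = 0.24). It was singled out after its values were seen, and its number of reads in fat is unknown.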
